A study of Homo sapiens with 10 samples.

Results

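The kinesin motor genes of the endothelial lines EA.hy926 and HMEC-1 were examined, 42 protein-coding genes with a KIF or KIFC symbol in GENCODE 44 out of 60448 genes in the table, and all 42 were found in it. RNA-seq had been run on untreated cells, with 5 biological replicates of each line, all labelled wild type. EA.hy926 is a hybrid of umbilical vein endothelium with the lung carcinoma line A549, and HMEC-1 is dermal microvascular endothelium immortalized with SV40 large T antigen, so each group is a single established line. The EA.hy926 medium was Advanced DMEM with 5% serum, and that of HMEC-1 was MCDB 131 with 10% serum, hydrocortisone at 1 μg/mL and epidermal growth factor at 10 ng/mL. Glutamine, gentamicin and penicillin were shared by both media, and RNA was taken from confluent monolayers. Line and medium cannot be told apart in any difference below.

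Kinesins are motors that use ATP to walk along microtubules or to take their ends apart. Mitotic kinesins build the spindle, move chromosomes and complete cytokinesis, and their genes are switched on late in the cell cycle. Transport kinesins carry organelles, vesicles, mRNA and signaling complexes in cells that may not divide at all, and in endothelium they serve the traffic of membrane proteins and the primary cilium. By textbook role, 14 members were taken as mitotic, 15 as transport and 13 as other kinesins, which regulate microtubule ends, cilia or signaling or whose role is less settled.

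Total counts were 33391640 to 43877224 per library. All 12 endothelial marker genes were tested, and by the adjusted p described below 9 were higher and 2 lower in EA.hy926, where 42.6% of all genes tested were higher and 43.3% lower. In CPM (counts scaled to a common library size with TMM factors) they summed to 4289 to 4931 in EA.hy926 compared with 1577 to 1617 in HMEC-1. Of 10 epithelial markers 7 were tested, with 4 higher and 2 lower in EA.hy926, against the same shares of all genes. Both thresholds given below were passed by 8 of the 12 endothelial markers (66.7%, against 35.5% of all genes tested). PECAM1, CDH5, VWF, ERG, ESAM and ICAM2 passed as higher (19.1% of all genes), with log2FC from 1.01 (ERG) to 5.28 (ESAM). EMCN, a sialomucin gene, and CLDN5 passed as lower (16.4% of all genes), with at most 2 and 5 counts in any EA.hy926 library. Mean CPM in EA.hy926 was 1633 for PECAM1 and 1268 for CDH5, of a mean sum of 4492. CDH1, ESRP1 and GRHL2, the epithelial markers not tested, had at most 2 counts in any library of either line, and 4 of the 7 tested passed both thresholds given below, in both directions. KRT8 and EPCAM were higher in EA.hy926 (log2FC = 4.83 and 1.83), and KRT19 and CLDN4 lower (log2FC = -4.71 and -1.42). Fewer cells carrying a transcript and less of it per cell cannot be told apart in these bulk libraries.

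Mitotic kinesins were mostly lower in EA.hy926, within a narrow range of fold changes, while transport kinesins differed more and in both directions. Of the 42 genes, 36 passed the filter on low counts (filterByExpr of edgeR), and 34 of these differed at the 0.05 level of the adjusted p (edgeR, quasi-likelihood test), against 85.8% of the 16310 genes tested. In the text a log2FC is the log2 ratio of EA.hy926 to HMEC-1, and a positive value is higher expression in EA.hy926. Its standard error is given as SE. Lower expression in EA.hy926 at that adjusted p was found for 21 kinesins and higher expression for 13, where 43.3% of all genes tested were lower and 42.6% higher. Both thresholds, the adjusted p and in addition a log2FC above 1 or below -1, were passed by 15 kinesins (41.7%, against 35.5% of all genes tested), 9 lower (16.4% of all genes) and 6 higher (19.1% of all genes). The CPM ranges of the lines did not overlap for 31 of the 36, against 77.4% of all genes tested, so the share of kinesins that differed was near that of genes in general. A gene expressed in a single line passes the filter through that line alone, so these counts describe the family and support nothing further.

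The roles differed in how their members were spread. Of the 13 mitotic members tested, 11 were lower in EA.hy926, KIF4B was higher and KIF18A did not pass. The median log2FC was -0.76 against -0.010 for all genes tested, and the quartiles were -0.88 and -0.48. Of the 14 transport members tested, 8 were higher and 6 lower, with a median log2FC of 0.11 and quartiles of -0.68 and 1.32. Both thresholds were passed by 3 mitotic members (23.1%), all lower, and by 8 transport members (57.1%), 5 higher and 3 lower. Of the 9 other kinesins tested, 4 were higher and 4 lower, and 4 passed both thresholds (44.4%). Over all genes tested 35.5% passed both, 16.4% as lower and 19.1% as higher. Scaling by library totals instead of TMM shifted the median log2FC over all genes by -0.135, the mitotic median became -0.90 and the transport median -0.026, so the sign of the transport median rests on the scaling.

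**Figure D1:**
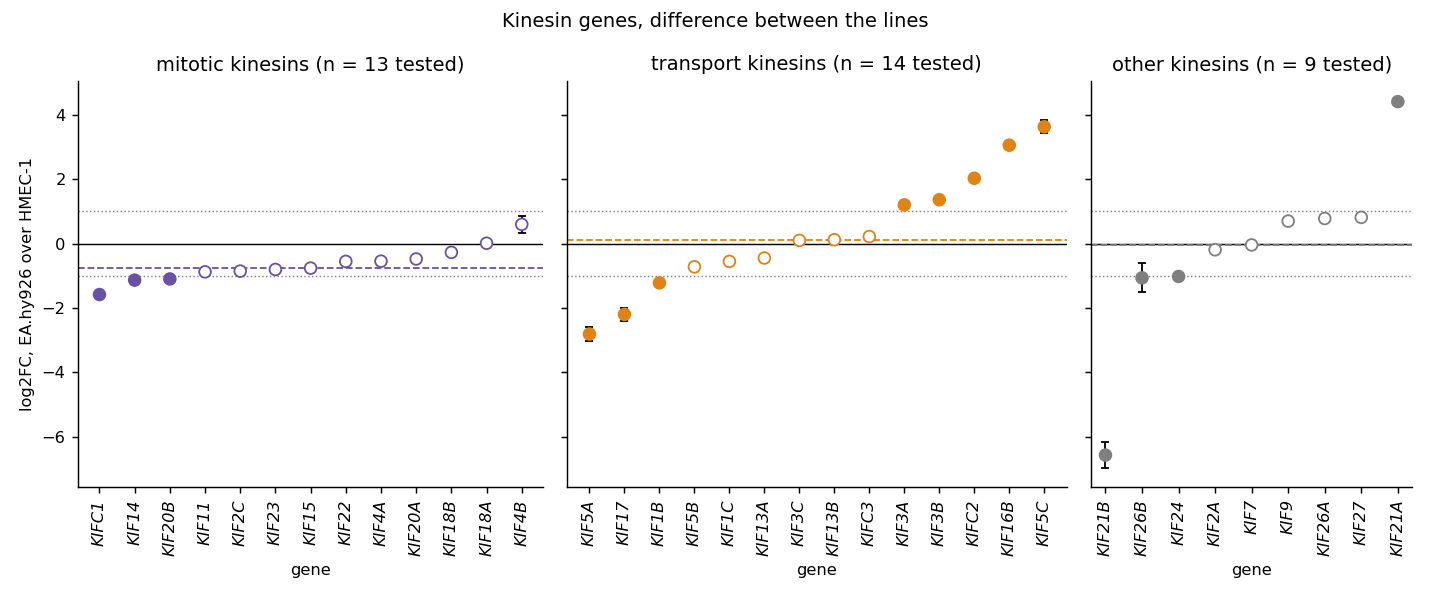
Log2FC of the 36 kinesin genes tested (y axis, log2 of EA.hy926 over HMEC-1), in panels by role, 1 point per gene with its standard error as a bar. Filled points passed both thresholds, dotted lines mark a log2FC of 1 and -1 and dashed lines the median of each role. Mitotic members lie between -1.58 and 0.60 and transport members between -2.81 and 3.63. The value of KIF21B rests on at most 1 count per EA.hy926 library and depends on the prior count of the fit.

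The motors that build the bipolar spindle were lower in EA.hy926. KIFC1 (ENSG00000237649, chromosome 6, 33391823 to 33409896, in GRCh38 as for all genes), a minus-end-directed kinesin-14 that bundles spindle poles and clusters extra centrosomes, had 47.7, 47.2, 50.0, 51.8 and 52.6 CPM in the EA.hy926 libraries. In HMEC-1 the KIFC1 level was 152, 149, 149, 151 and 148 CPM, 3.00-fold higher, with no overlap (log2FC = -1.58, SE 0.031, edgeR adjusted p = 2.2e-21). The pseudogene RPL12P1 covers 13.99% of the exonic bases of KIFC1, which leaves part of its counts uncertain. KIF11 (ENSG00000138160, chromosome 10, 92574105 to 92655395), the kinesin-5 known as Eg5 that slides antiparallel microtubules apart, had 139, 146, 148, 148 and 149 CPM in EA.hy926. The KIF11 values of HMEC-1 were 258, 268, 272, 270.0 and 273 CPM, every one above those of EA.hy926 (log2FC = -0.88, SE 0.026, edgeR adjusted p = 3.8e-18). KIF15, a kinesin-12 that can take over from Eg5, was 1.70-fold higher in HMEC-1 (log2FC = -0.76, SE 0.030, edgeR adjusted p = 5.5e-16).

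The log2FC of motors acting on chromosomes and microtubule plus ends ran from -0.86 to 0.010. KIF2C, the depolymerase MCAK that corrects wrong kinetochore attachments, had 76.6 to 86.4 CPM in EA.hy926 compared with 144 to 149 CPM in HMEC-1 (log2FC = -0.86, SE 0.032, edgeR adjusted p = 3.0e-16). The chromokinesins KIF22 and KIF4A, which bind chromosome arms, were lower in EA.hy926 by less, with log2FC of -0.55 (SE 0.037) and -0.55 (SE 0.038). The kinesin-8 genes KIF18A and KIF18B, whose products limit microtubule length at kinetochores and spindle poles, differed least. KIF18B had 76.1 to 82.8 CPM in EA.hy926 compared with 93.8 to 98.8 CPM in HMEC-1 (log2FC = -0.27, SE 0.030, edgeR adjusted p = 2.8e-08). KIF18A ran at 47.7 to 52.2 CPM in EA.hy926 compared with 47.9 to 51.7 CPM in HMEC-1, and the ranges overlapped (log2FC = 0.010, SE 0.034, edgeR adjusted p = 0.78). Its sign changed when HMEC-1 replicate 1, 2 or 5 was left out, and with library totals its log2FC was -0.12.

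All 4 cytokinesis kinesins were lower in EA.hy926. KIF20A (ENSG00000112984, chromosome 5, 138178719 to 138187723), a kinesin-6 that brings the Aurora B complex to the central spindle, had 191, 197, 202, 209 and 211 CPM in EA.hy926. HMEC-1 had 278, 282, 279, 285 and 283 CPM of KIF20A, without overlap (log2FC = -0.48, SE 0.027, edgeR adjusted p = 3.7e-13). KIF20B (ENSG00000138182, chromosome 10, 89701590 to 89774939), a kinesin-6 acting in abscission, differed more than KIF20A. Its levels were 62.2, 66.5, 69.9, 62.8 and 64.3 CPM in EA.hy926 compared with 136, 139, 137, 142 and 144 CPM in HMEC-1 (log2FC = -1.10, SE 0.031, edgeR adjusted p = 2.3e-18). KIF14 (ENSG00000118193, chromosome 1, 200551497 to 200620751), a kinesin-3 that recruits citron kinase to the midbody, had 56.4, 56.8, 61.8, 61.8 and 59.1 CPM in EA.hy926. The HMEC-1 libraries gave 127, 124, 135, 133 and 131 CPM for KIF14, all above the highest EA.hy926 value (log2FC = -1.14, SE 0.033, edgeR adjusted p = 3.1e-18). KIF23, which forms centralspindlin with RACGAP1, had a log2FC of -0.80 (SE 0.030). KIFC1, KIF14 and KIF20B were the only mitotic members past a log2FC of 1 in size, a call that held with each library left out in turn, and with library totals KIF11 passed as well (log2FC = -1.01).

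The remaining mitotic members were not detected or had few counts. KIF2B had 0 counts in all 10 libraries, which allows up to 0.0651 to 0.0904 CPM, the value of 3 counts. This floor covers counting error only, since PCR copies were not told apart by molecular identifiers. KIF4B, an intronless copy of KIF4A, had 26 to 54 counts in the EA.hy926 libraries and 14 to 38 in those of HMEC-1, and the ranges overlapped (log2FC = 0.60, SE 0.26, edgeR adjusted p = 0.038). Its transcript aligned to that of KIF4A over 4345 bases with 95.2% identity, and KIF4B made 0.990% of the summed KIF4A and KIF4B level per kb in EA.hy926 and 0.458% in HMEC-1. Reads of KIF4A can therefore be placed on KIF4B, and its direction is uncertain. The adjusted p of KIF4B was no longer under 0.05 without EA.hy926 replicate 1 (0.056) or 3 (0.16), without HMEC-1 replicate 2 (0.083), 3 (0.090) or 5 (0.12), or with library totals (0.10). Without KIF4B the mitotic median log2FC was -0.78.

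**Figure D2:**
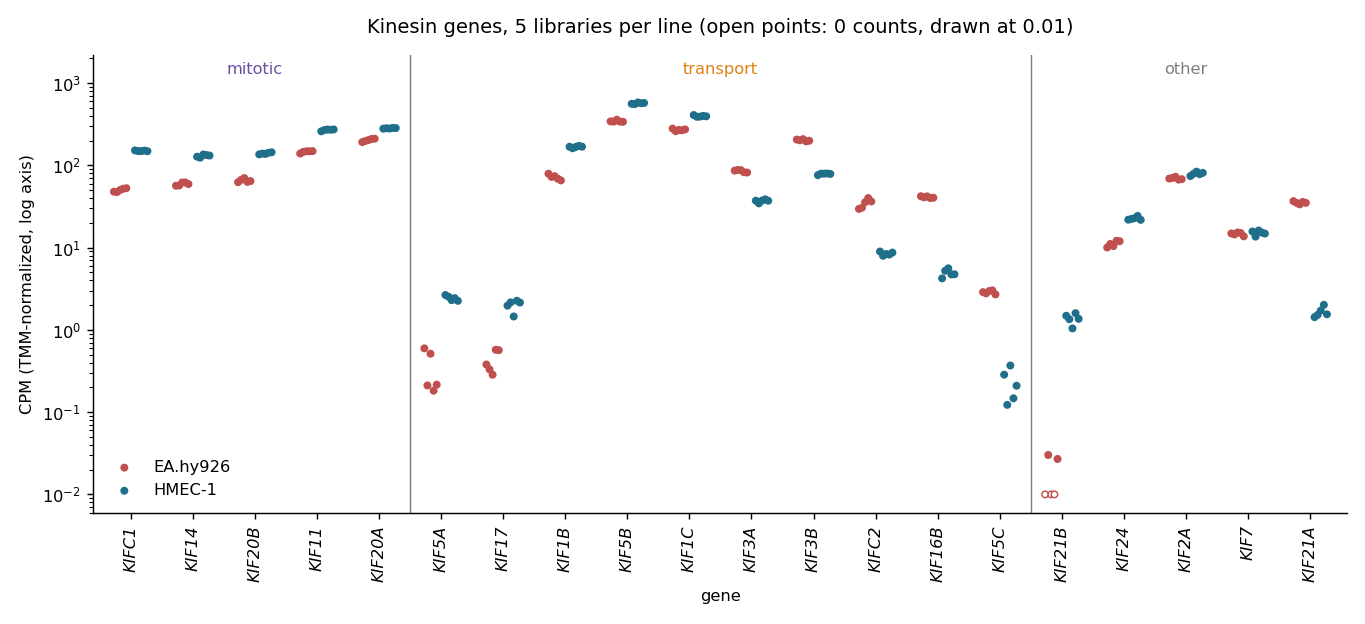
CPM (y axis, TMM-normalized, log axis) of the 20 kinesin genes given with every library, 5 points per line and gene, grouped by role on the x axis. Open points are libraries with 0 counts, drawn at 0.01. The mitotic genes, KIF5A, KIF17, KIF1B, KIF5B, KIF1C, KIF21B, KIF24 and KIF2A lie above in HMEC-1 and KIF3A, KIF3B, KIFC2, KIF16B, KIF5C and KIF21A above in EA.hy926, while the points of KIF7 overlap.

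Genes that work with the mitotic kinesins were mostly lower in EA.hy926 too. All 17 such partners were tested and passed the adjusted p of edgeR, 15 as lower (43.3% of all genes) and 2 as higher (42.6% of all genes), with a median log2FC of -0.38. Both thresholds were passed by 3 (17.65%, against 35.5% of all genes tested), all lower. These were PRC1, the midzone bundler that KIF4A binds (log2FC = -1.25, SE 0.024), NUSAP1 (-1.45, SE 0.033) and CENPE (-1.21, SE 0.042). CENPE is itself a kinesin, the kinetochore motor of the kinesin-7 family, but its symbol keeps it out of the 42. The higher genes were TPX2, which targets Eg5 to the spindle (log2FC = 0.13, SE 0.025), and NUMA1 (0.26, SE 0.029).

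Proliferation markers differed in the same direction. Of 10 such genes, 9 were lower in EA.hy926 and PCNA was higher, against 43.3% of all genes tested lower and 42.6% higher. Both thresholds were passed by 4 (CCNA2, CCNB2, CDK1 and BUB1), all lower, against 16.4% of all genes, and the share past both in either direction was 35.5% over all genes. The 10 markers summed to 2176 to 2343 CPM in EA.hy926 compared with 3588 to 3750 CPM in HMEC-1. The 14 mitotic kinesins summed to 1018 to 1114 CPM in EA.hy926 compared with 1775 to 1823 CPM in HMEC-1, which was 46.8% to 47.6% of the marker sum for EA.hy926 and 48.6% to 49.6% for HMEC-1. The part of cell cycle activity in the difference of the mitotic kinesins was not tested.

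Most promoters of the mitotic kinesins shared a sequence feature. The cell cycle homology region, a hexamer near the start site of late cell cycle genes, was searched as TTTGAA or TTCGAA on both strands, together with CCAAT, the box bound by NF-Y, in the RefSeq windows of GRCh38.p14 that run from 250 bases before to 50 after a start. At least 1 window was listed for all 14 mitotic members, for 11 of the 15 transport members and for 9 of the 13 others, 43 windows in all. The hexamer stood in 12 of 15 mitotic windows, 1 of 16 transport windows and 1 of 12 other windows, and in 16.35% of all 35116 windows of the table. With its first base within 50 bases of the start it was found in 10 of 15 mitotic windows, in 0 of 16 transport windows and in 5.012% of all windows. By gene, 10 of the 14 mitotic members had it there, among them both KIF4A and its copy KIF4B, whose windows share the stretch that holds it. The 2 windows of KIF22 overlap and hold the same hexamer, which the count over whole windows includes for each. CCAAT stood in 11 of 15 mitotic and 5 of 16 transport windows and in 34.6% of all windows. The other kinesin with the hexamer near its start was KIF24, which was also lower in EA.hy926. These matches are letters only, and whether a factor binds there was not tested.

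The stretches below run from 80 bases before the start to 40 after, on the strand of the gene, with hexamers and CCAAT (or their reverse complements, TTCAAA and ATTGG) in capitals. The first 3 are the mitotic members past both thresholds, followed by KIF11 as the spindle motor with the highest level per kb, KIF4A with its copy KIF4B, KIF18A as a member whose difference did not pass the test, KIF24, and for contrast KIF3B, KIF3A and KIF16B, which were higher in EA.hy926.
KIFC1 (chr6:33391743-33391862, plus strand): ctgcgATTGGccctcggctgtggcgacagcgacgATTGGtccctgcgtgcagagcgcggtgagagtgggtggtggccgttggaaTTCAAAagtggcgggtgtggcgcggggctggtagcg
KIF14 (chr1:200620712-200620831, minus strand): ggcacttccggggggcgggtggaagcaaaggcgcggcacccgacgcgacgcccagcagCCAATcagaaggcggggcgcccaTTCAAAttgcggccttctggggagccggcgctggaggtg
KIF20B (chr10:89701510-89701629, plus strand): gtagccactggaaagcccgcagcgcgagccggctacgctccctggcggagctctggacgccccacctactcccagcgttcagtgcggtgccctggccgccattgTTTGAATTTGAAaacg
KIF11 (chr10:92593050-92593169, plus strand): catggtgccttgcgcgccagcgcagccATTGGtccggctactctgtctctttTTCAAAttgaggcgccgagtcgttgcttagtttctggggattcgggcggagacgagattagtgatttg
KIF4A (chrX:70290024-70290143, plus strand): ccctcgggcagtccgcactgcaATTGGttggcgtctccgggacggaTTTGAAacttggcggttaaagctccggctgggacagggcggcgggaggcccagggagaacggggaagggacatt
KIF4B (chr5:155013675-155013794, plus strand): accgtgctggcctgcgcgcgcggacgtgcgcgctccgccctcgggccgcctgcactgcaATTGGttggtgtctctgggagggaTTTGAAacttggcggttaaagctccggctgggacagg
KIF18A (chr11:28108117-28108236, minus strand): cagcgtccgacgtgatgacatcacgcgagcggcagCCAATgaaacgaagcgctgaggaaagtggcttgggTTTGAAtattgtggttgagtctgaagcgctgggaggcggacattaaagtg
KIF24 (chr9:34329229-34329348, minus strand): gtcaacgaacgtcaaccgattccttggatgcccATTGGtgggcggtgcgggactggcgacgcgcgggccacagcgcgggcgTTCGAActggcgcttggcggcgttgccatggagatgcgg
KIF3B (chr20:32277571-32277690, plus strand): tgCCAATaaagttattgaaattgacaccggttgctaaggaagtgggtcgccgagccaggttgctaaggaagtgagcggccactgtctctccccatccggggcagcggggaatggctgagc
KIF3A (chr5:132737507-132737626, minus strand): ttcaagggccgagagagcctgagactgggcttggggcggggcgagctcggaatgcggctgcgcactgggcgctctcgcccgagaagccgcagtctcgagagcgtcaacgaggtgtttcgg
KIF16B (chr20:16573409-16573528, minus strand): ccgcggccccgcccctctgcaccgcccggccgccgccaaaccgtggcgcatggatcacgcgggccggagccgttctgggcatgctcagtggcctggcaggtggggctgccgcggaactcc

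With the start as position 1 and the base before it as position -1, the hexamer began at position 5 in KIFC1, 2 in KIF14, 25 in KIF20B, where another follows directly at 31, -28 in KIF11, -34 in KIF4A and -10 in KIF18A. A CCAAT box stood upstream of it in each, which for KIF20B lies further upstream than the stretch shown. KIF24 had TTCGAA at position 2. The KIF4B window aligned to that of KIF4A over 144 bases with 93.8% identity, from 94 bases before to 50 after the KIF4B start, and both held the hexamer and a CCAAT box in that stretch. The hexamer was present in KIF18A, with a log2FC near 0, and in KIFC1, with the lowest log2FC of the role. The windows of KIF3B, KIF3A and KIF16B held no hexamer. Windows without it also belonged to transport members (KIF1B, KIF17, KIF1C, KIF13A) and mitotic members (KIF2C, KIF20A) that were lower in EA.hy926. Any part of the hexamer in the difference between the lines was not tested.

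**Figure D3:**
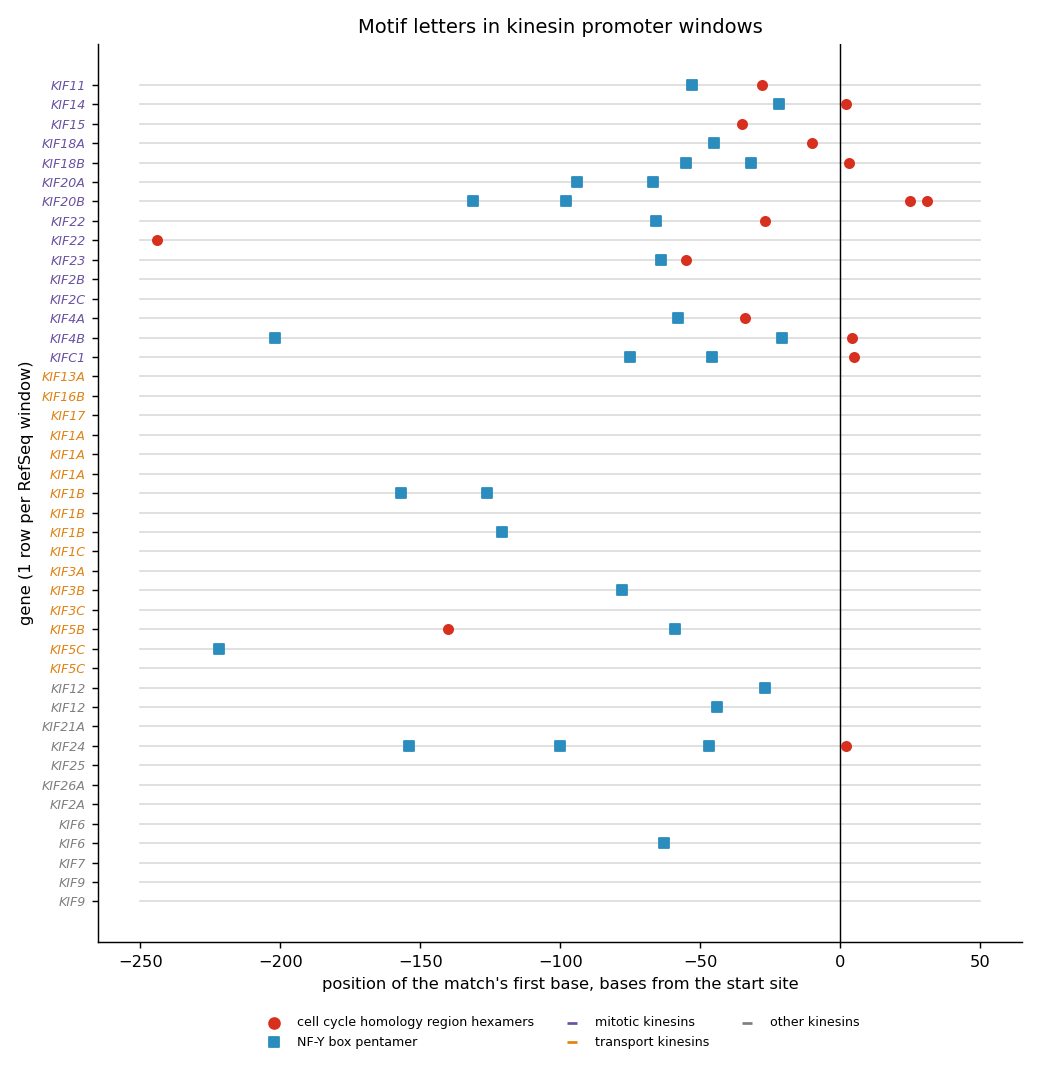
Position of motif matches (x axis, bases of the first base from the start site) in the 43 RefSeq promoter windows of kinesin genes (y axis, 1 row per window, names colored by role). Circles are the cell cycle homology hexamers and squares the box searched with them. Circles of the mitotic rows gather close to the start, within 50 bases of it in 10 of 15 rows, and a transport row holds a single circle, upstream.

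Conventional kinesin, the main plus-end cargo motor, was carried by KIF5B in both lines. KIF5B (ENSG00000170759, chromosome 10, 32009015 to 32056425) had 342, 339, 358, 339 and 337 CPM in EA.hy926. In HMEC-1, KIF5B reached 558, 554, 580.1, 567 and 572 CPM, with every library above those of EA.hy926 (log2FC = -0.72, SE 0.024, edgeR adjusted p = 3.7e-17). It made 99.8% of the summed level of the 3 KIF5 genes per kb of exon in each line. The relatives KIF5A and KIF5C, known mainly from neurons, were scarce and went in opposite directions. KIF5A (ENSG00000155980, chromosome 12, 57546026 to 57586633) had 0.596, 0.211, 0.513, 0.182 and 0.216 CPM in EA.hy926 compared with 2.65, 2.52, 2.30, 2.43 and 2.25 CPM in HMEC-1 (log2FC = -2.81, SE 0.23, edgeR adjusted p = 1.9e-10). KIF5C (ENSG00000168280, chromosome 2, 148875227 to 149026759) had 2.87, 2.77, 2.96, 3.02 and 2.69 CPM in EA.hy926 against 0.285, 0.123, 0.369, 0.147 and 0.209 CPM in HMEC-1 (log2FC = 3.63, SE 0.20, edgeR adjusted p = 2.9e-13). The counts behind them were 7 to 22 per EA.hy926 library for KIF5A and 5 to 17 per HMEC-1 library for KIF5C. KIF5A would not have passed the filter without HMEC-1, nor KIF5C without EA.hy926, so their small adjusted p values are no separate support.

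Kinesin-2, which drives anterograde transport in cilia and carries late endosomes, had both motor subunits of its heterotrimer higher in EA.hy926. KIF3B (ENSG00000101350, chromosome 20, 32277651 to 32335011) had 205, 201, 208, 195 and 199 CPM in EA.hy926. KIF3B in HMEC-1 was at 75.9, 79.1, 79.1, 79.5 and 78.4 CPM, below every EA.hy926 library and 2.57-fold lower (log2FC = 1.36, SE 0.026, edgeR adjusted p = 1.9e-21). Its partner in the heterotrimer, KIF3A (ENSG00000131437, chromosome 5, 132692628 to 132737638), had 86.2, 87.8, 87.1, 82.2 and 81.6 CPM in EA.hy926 compared with 37.1, 34.5, 37.2, 38.6 and 37.1 CPM in HMEC-1, again without overlap (log2FC = 1.20, SE 0.034, edgeR adjusted p = 1.5e-18). The third subunit, encoded by KIFAP3, which links the motor to cargo, differed little (log2FC = 0.19, SE 0.039, edgeR adjusted p = 1.6e-04). KIF3C, which can replace KIF3B, had 58.0 to 65.2 CPM in EA.hy926 compared with 54.4 to 57.5 CPM in HMEC-1 (log2FC = 0.099, SE 0.034, edgeR adjusted p = 0.0099), but the adjusted p was 0.063 without HMEC-1 replicate 2, and with library totals the log2FC was -0.037.

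KIF17 (ENSG00000117245, chromosome 1, 20664014 to 20718017), the homodimeric kinesin-2 of cilia and dendrites, was the exception in this family. It had 0.379, 0.331, 0.285, 0.573 and 0.566 CPM in EA.hy926 compared with 1.97, 2.16, 1.45, 2.26 and 2.15 CPM in HMEC-1, that is 10 to 22 and 67 to 92 counts, lower in EA.hy926 without overlap (log2FC = -2.20, SE 0.20, edgeR adjusted p = 1.7e-09). Per kb of exon, the 4 kinesin-2 genes summed to 54.9 ± 1.46 CPM (SD, n = 5) for EA.hy926 against 27.4 ± 0.363 for HMEC-1. KIF3B made 60.1% of that sum in EA.hy926 and 46.7% in HMEC-1, and KIF3C 17.2% and 32.1%.

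The intraflagellar transport genes, whose protein trains kinesin-2 moves along the cilium, were mostly higher in EA.hy926 too. Of 22 symbols listed, IFT56, IFT70A and IFT70B did not match the annotation, and other names for them were not searched. The 19 that matched were all tested. By the adjusted p of edgeR, 15 were higher and 3 lower (42.6% and 43.3% of all genes tested), with a median log2FC of 0.81. Both thresholds were passed by 6 (31.6%, against 35.5% of all genes tested), all higher (19.1% of all genes). These were IFT52, IFT57, IFT140, WDR35, CLUAP1 and the dynein-2 motor gene DYNC2H1. IFT57 differed most (log2FC = 2.77, SE 0.040, edgeR adjusted p = 1.8e-23). The lower genes were IFT20, IFT27 and TRAF3IP1, the last with a log2FC of -0.64 (SE 0.047). Cilia were not measured here.

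**Figure D4:**
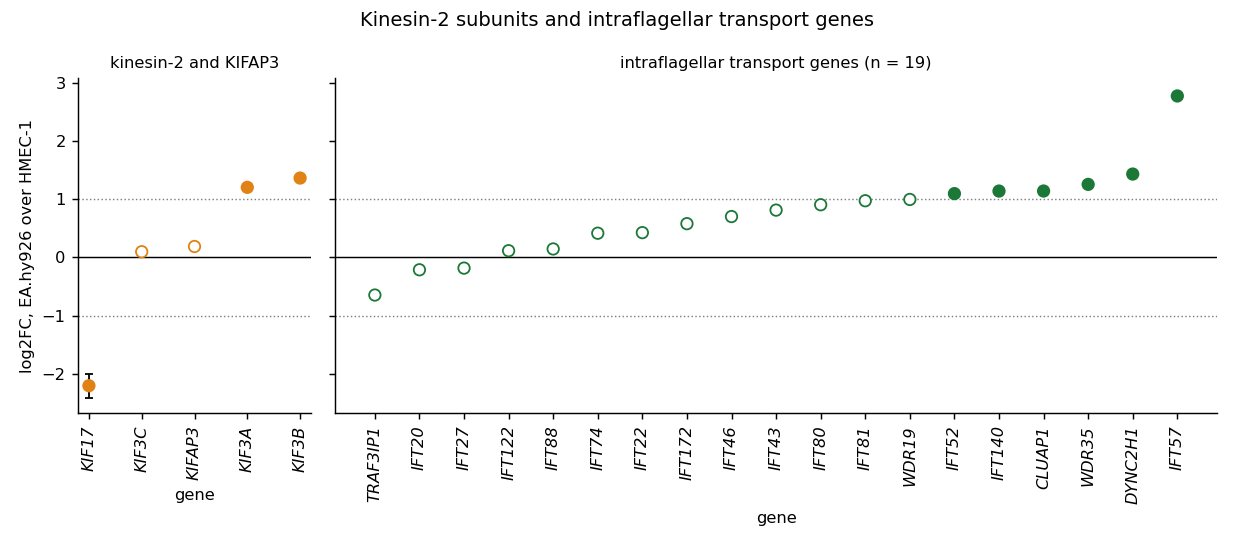
Log2FC (y axis, log2 of EA.hy926 over HMEC-1) of the 4 kinesin-2 genes and KIFAP3 on the left and of 19 intraflagellar transport genes on the right, with the standard error as bars. Filled points passed both thresholds and dotted lines mark a log2FC of 1 and -1. KIF3A and KIF3B lie above 1 like 6 of the 19 genes on the right, and KIF17 lies below -1.

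Kinesin-3 motors, which carry vesicles and endosomes over long distances, were split. KIF1C (ENSG00000129250, chromosome 17, 4997950 to 5028401), a carrier of dense-core vesicles, integrins and mRNA, had 279, 259, 269, 266 and 273 CPM in EA.hy926 compared with 408, 389, 389.9, 398 and 393 CPM in HMEC-1 (log2FC = -0.55, SE 0.025, edgeR adjusted p = 7.7e-15). KIF1B (ENSG00000054523, chromosome 1, 10210570 to 10381603), with isoforms for mitochondria and synaptic vesicle precursors, went the same way by more. KIF1B levels were 79.0, 72.1, 73.7, 68.6 and 65.5 CPM in EA.hy926 compared with 168, 161, 167, 172 and 168 CPM in HMEC-1, with no overlap (log2FC = -1.22, SE 0.038, edgeR adjusted p = 9.7e-18). The neuronal relative KIF1A had 0 counts in EA.hy926 and at most 2 in a library of HMEC-1. KIF16B (ENSG00000089177, chromosome 20, 16272104 to 16573448), which carries early endosomes and with them growth factor receptors, was the kinesin-3 with the largest difference. It had 42.1, 40.8, 41.9, 39.9 and 40.3 CPM in EA.hy926 against 4.22, 5.22, 5.59, 4.71 and 4.74 CPM in HMEC-1, 8.32-fold higher in EA.hy926 (log2FC = 3.06, SE 0.056, edgeR adjusted p = 8.7e-22). KIF13A, a carrier of recycling endosomes, was lower in EA.hy926 (log2FC = -0.45, SE 0.035). The ranges of KIF13B overlapped, with 24.7 to 29.3 CPM in EA.hy926 compared with 22.9 to 25.7 CPM in HMEC-1 (log2FC = 0.12, SE 0.046, edgeR adjusted p = 0.021). Its adjusted p in edgeR was 0.059, 0.051 and 0.12 without EA.hy926 replicate 1, HMEC-1 replicate 1 and HMEC-1 replicate 2, and its log2FC with library totals was -0.015.

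The C-terminal motors KIFC2 and KIFC3 walk to microtubule minus ends. KIFC2 (ENSG00000167702, chromosome 8, 144466043 to 144474202) had 29.5, 30.5, 35.5, 39.97 and 36.3 CPM in EA.hy926, with a wide spread, and 8.95, 7.94, 8.35, 8.22 and 8.69 CPM in HMEC-1 (log2FC = 2.03, SE 0.074, edgeR adjusted p = 1.6e-16). Every EA.hy926 library was above every HMEC-1 library, but exons of FOXH1 cover 17.8% of the exonic bases of KIFC2. KIFC3, which acts at adherens junctions and the Golgi, was higher in EA.hy926 by 1.16-fold, with 68.7 to 75.7 CPM against 60.7 to 63.4 CPM (log2FC = 0.22, SE 0.029, edgeR adjusted p = 6.5e-07). Of the 3 KIFC genes, KIFC1 made 51.9% of the summed level per kb in EA.hy926 and 85.5% in HMEC-1, and KIFC2 24.3% and 3.28%.

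Light chains and adaptors that couple kinesins to cargo were tested for all 19 genes listed. All passed the adjusted p of edgeR, 7 as higher and 12 as lower in EA.hy926, against 85.8%, 42.6% and 43.3% of all genes tested, with a median log2FC of -0.40. Both thresholds were passed by 5 of the 19 (26.3%, against 35.5% of all genes). MAPK8IP1, the scaffold JIP1 that binds kinesin light chain, was the single member past both thresholds in the upward direction (log2FC = 1.75, SE 0.047, edgeR adjusted p = 7.9e-19). KIFBP, which holds several kinesins off the microtubule, was lower (log2FC = -1.16, SE 0.027, edgeR adjusted p = 6.6e-20). FEZ1, a KIF5 adaptor, had 6 to 9 counts in the EA.hy926 libraries and 283 to 441 in those of HMEC-1 (log2FC = -5.57, SE 0.13). KLC3 and MAPK8IP2 passed in the same direction on at most 29 counts per library.

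By fitted log2FC, the kinesin-4 pair KIF21A and KIF21B, which slow microtubule growth at plus ends, differed most in the family. For KIF21B this rank is not secured, since its fitted value depends on the prior count. KIF21A (ENSG00000139116, chromosome 12, 39293228 to 39443390) had 36.6, 34.9, 33.5, 35.9 and 34.9 CPM in EA.hy926 compared with 1.43, 1.52, 1.71, 2.01 and 1.54 CPM in HMEC-1, 21.3-fold higher in EA.hy926 (log2FC = 4.41, SE 0.067, edgeR adjusted p = 4.4e-23). KIF21B (ENSG00000116852, chromosome 1, 200969390 to 201023714) had 0, 1, 0, 0 and 1 counts in the EA.hy926 libraries and 1.48, 1.35, 1.04, 1.59 and 1.36 CPM in HMEC-1, from 48 to 65 counts. In the EA.hy926 library where they weigh most, 3 counts are worth 0.0904 CPM, and the HMEC-1 mean of 1.37 CPM is 15.1 times that floor. This bound rests on the mean, and the lowest HMEC-1 library, at 1.04 CPM, lies closer to the floor. KIF21B passed the filter through HMEC-1 alone, so its small adjusted p (2.2e-12, quasi-likelihood test) is no separate support. Per kb of exon the pair summed to 3.48 CPM in EA.hy926 compared with 0.275 CPM in HMEC-1, of which KIF21A made 99.97% and 59.1%.

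Among the other kinesins, KIF24 (ENSG00000186638, chromosome 9, 34252380 to 34329268), a kinesin-13 that restrains cilium formation at the mother centriole, was lower in EA.hy926. It had 10.0, 11.1, 10.4, 12.1 and 11.9 CPM in EA.hy926 compared with 21.8, 22.3, 22.7, 24.2 and 21.7 CPM in HMEC-1, without overlap (log2FC = -1.02, SE 0.056, edgeR adjusted p = 2.0e-13). The log2FC was close to the threshold and fell short of it without EA.hy926 replicate 1 (-0.98) or 3 (-0.99). KIF2A (ENSG00000068796, chromosome 5, 62306162 to 62391025), a kinesin-13 depolymerase of spindle poles and neurites, had 69.0, 70.2, 72.5, 66.9 and 67.8 CPM in EA.hy926 compared with 73.9, 78.9, 83.7, 77.9 and 80.9 CPM in HMEC-1, a small difference without overlap (log2FC = -0.19, SE 0.033, edgeR adjusted p = 1.7e-05). Exons of other genes cover 21.3% of its exonic bases. KIF7 (ENSG00000166813, chromosome 15, 89608789 to 89663086), the ciliary tip kinesin of Hedgehog signaling, had 14.8, 14.4, 15.2, 15.02 and 13.7 CPM in EA.hy926 compared with 15.7, 13.6, 16.1, 15.2 and 14.8 CPM in HMEC-1, which overlapped (log2FC = -0.042, SE 0.053, edgeR adjusted p = 0.46), and with library totals its adjusted p was 0.0047. Exons of TICRR cover 10.8% of the exonic bases of KIF7.

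The remaining tested members included KIF9, KIF26A and KIF27, higher in EA.hy926 at a log2FC below 1. The log2FC was 0.70 (SE 0.092) for KIF9, a kinesin of motile cilia, 0.78 (SE 0.057) for KIF26A, whose motor lacks ATPase activity, and 0.81 (SE 0.12) for KIF27, a relative of KIF7. Exons of other genes cover 17.8% of the exonic bases of KIF9 and 10.7% of those of KIF27. KIF26B passed both thresholds on 2 to 12 counts in the EA.hy926 libraries and 4 to 20 in those of HMEC-1, with overlapping ranges (log2FC = -1.06, SE 0.45, edgeR adjusted p = 0.033). Without EA.hy926 replicate 2, 3 or 4 or HMEC-1 replicate 1 or 4 it was no longer called, and its log2FC ranged from -1.52 to -0.82. KIF6, KIF12, KIF19 and KIF25 did not pass the filter, like KIF1A and KIF2B, with at most 10 counts in any library.

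Levels between genes were compared per kb of merged exons, a length that overstates that of single transcripts. KIF5B was the highest kinesin in both lines, with 58.5 ± 1.45 CPM per kb (SD, n = 5) in EA.hy926 and 96.5 ± 1.76 in HMEC-1, and KIF20A followed in both, with 52.4 ± 2.09 and 73.1 ± 0.698. The third place was held by KIF3B in EA.hy926, at 32.98 ± 0.822 CPM per kb, near the 31.4 ± 0.866 of KIF1C, and by KIF11 in HMEC-1, at 50.4 ± 1.07 CPM per kb, where KIFC1 was next with 49.4 ± 0.518. KIF3B stood in place 14 in HMEC-1, and KIFC1 in place 10 in EA.hy926. All 42 genes summed to 415 ± 9.29 CPM per kb in EA.hy926 and 587 ± 5.09 in HMEC-1. Mitotic members made 54.0% ± 1.18 of that sum in EA.hy926 and 64.5% ± 0.314 in HMEC-1, and transport members 41.96% ± 1.07 and 33.05% ± 0.304. Of the summed CPM without division by length, mitotic members made 43.6% in EA.hy926 and 53.4% in HMEC-1, and transport members 50.1% and 42.6%. Which role was larger in EA.hy926 thus rests on the scaling by length. In absolute terms the mitotic sum was 225 ± 9.22 against 378 ± 3.68 CPM per kb, and the transport sum 174 ± 3.19 against 194 ± 2.33.

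**Figure D5:**
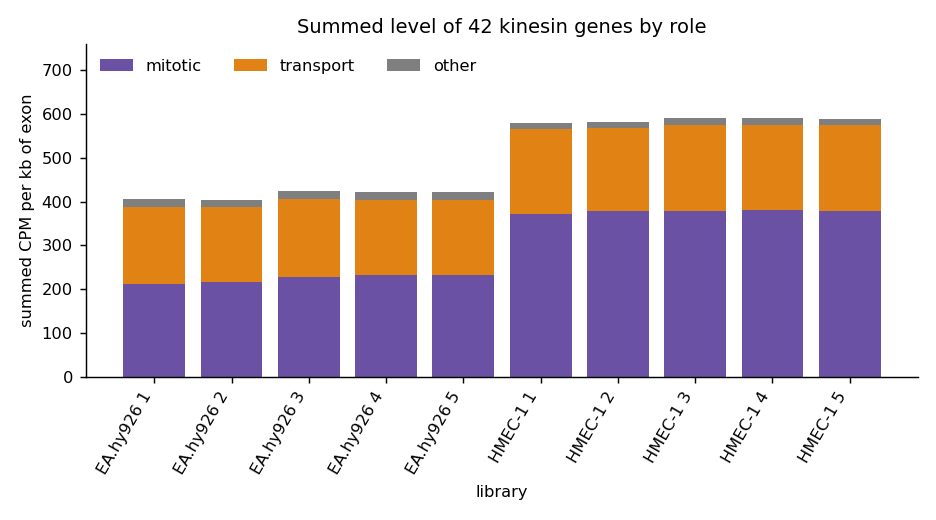
Summed CPM per kb of exon (y axis, from 0) of the 42 kinesin genes in each of the 10 libraries (x axis), stacked by role. The mitotic part lies between 212 and 233 in the EA.hy926 libraries and between 372 and 381 in the HMEC-1 libraries, while the transport part lies between 171 and 179 and between 190 and 196.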

How the data were processed

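RNA-seq of 10 libraries was used, 5 each of EA.hy926 and HMEC-1, with line and replicate number taken from the labels. The authors enriched mRNA on oligo(dT) beads, sequenced it on an Illumina NovaSeq instrument and aligned it to GRCh38 with HISAT2. The deposited values are raw counts per Ensembl gene. For the counting, the methods name HTSeq and the submitters' processing notes list featureCounts, and the versions, annotation release and strand setting are not given in the sources used here, so counts of overlapping genes are uncertain. Library totals ran from 34846046 to 39899324 for EA.hy926 and from 33391640 to 43877224 for HMEC-1, which makes 3 counts worth 0.0651 to 0.0904 CPM.

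Symbols, coordinates and merged exon lengths came from GENCODE 44, which matched 56434 of 60448 identifiers, and exon overlap from bedtools 2.31.1. Low genes were removed by filterByExpr at a count of 10 and a total of 15. After TMM scaling, the quasi-likelihood test (glmQLFit, then glmQLFTest) was run in R 4.3.3 with edgeR 4.0.16, without covariates and with Benjamini-Hochberg adjustment over all 16310 genes. The standard error is the absolute log2FC over the square root of F. The methods name limma for differential expression. It was run as limma-voom (3.58.1) beside DESeq2 1.42.0, glmTreat, RLE factors, library totals, no filter, at least 10 counts in every library, a replicate block and each library left out. As alternatives of role, KIF2A was taken as mitotic, and KIF21A and KIF21B as transport. The tests were tried on simulated counts. KIF4A and KIF4B were aligned with blastn 2.17.0. Promoter sequences are from the RefSeq table of GRCh38.p14, and without a window there KIF5A, KIF13B, KIF19, KIF21B, KIF26B, KIF27, KIFC2 and KIFC3 are named only. Protein sequences were not analysed here.

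The members and lists were chosen with earlier results of these data known. Every member is named, and of the context lists the genes past both thresholds. KIFAP3, TPX2, NUMA1, PCNA, IFT20, IFT27 and TRAF3IP1 were named after their values had been seen. Values of each library are given for the 14 members past both thresholds with a mean of at least 1 CPM in a line and for the 3 members of each role with the highest CPM per kb, 20 in all. The alternative without KIF4B and the count of hexamers near the start were added after the data had been seen.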

Additional observations from a re-analysis of the deposited data

Results flagged for a closer look

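Of 72 sets of 5 libraries (36 genes in each line), 3 held a library whose distance from its nearest neighbour took up 0.71 or more of the range of the set, the limit at which chance alone picks about 1 in 20 such sets. KIF5B in EA.hy926 replicate 3 was at 358 CPM, where the other 4 libraries lay between 337 and 342. KIF3B in HMEC-1 replicate 1 was at 75.9 CPM, against 78.4 to 79.5 in the others. KIF13B in HMEC-1 replicate 2 was at 22.9 CPM, against 24.98 to 25.7 in the others, and its lines overlapped.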

How the results depend on the processing

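The counts of kinesins past both thresholds (15 in all, 3 mitotic and 8 transport) stayed within 1.5 times their value under every alternative tried, and leaving out single libraries gave 13 to 15, 3 and 8, with medians of -0.78 to -0.74 (mitotic) and 0.074 to 0.14 (transport). With at least 10 counts in every library, these counts were 11, 3 and 6. Scaling by library totals instead of TMM gave 16, 4 and 8. With KIF2A taken as mitotic, 3 of 14 tested members of that role passed, and the mitotic median was -0.66. With KIF21A and KIF21B taken as transport, 10 of 16 passed (against 35.5% of all genes tested), and the transport median stayed at 0.11. Under library totals the median log2FC of the mitotic kinesins went from -0.76 to -0.90 and that of the transport kinesins from 0.11 to -0.026, KIF3C, KIF13B and KIF18A changed sign (-0.037, -0.015 and -0.12), and KIF11 passed the fold change threshold (-1.01). Without a filter KIF18A was at -0.010, and with each library left out it lay between -0.016 and 0.032 (-0.016, -0.0049 and -0.016 without HMEC-1 replicates 1, 2 and 5). KIF26B was not called by limma-voom (adjusted p = 0.066) and neither KIF26B nor KIF24 by glmTreat. The number of genes called over the whole table was 5784, and 9312 without a filter and 3255 with at least 10 counts in every library, which removes KIF5A, KIF5C, KIF21B and KIF26B from the test. Replicates share the numbers 1 to 5, but same-numbered libraries did not deviate together (correlations of -0.022 to 0.043, and 2 of 5 libraries closest to their own number), and with the replicate block the kinesins called stayed at 15. Depth limits KIF4B, KIF17, KIF5A, KIF5C, KIF21B and KIF26B, each with at most 116 counts in any library.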

Other observations

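Cytoplasmic dynein, the minus-end motor that works against most transport kinesins, had members that differed in either direction. Of 25 genes of dynein, dynactin and their regulators, 23 were tested, and by the adjusted p of edgeR 9 were higher and 14 lower in EA.hy926 (42.6% and 43.3% of all genes), with a median log2FC of -0.25. Both thresholds were passed by 4 (17.4%, against 35.5% of all genes tested). Higher were the light chain gene DYNLT3 (log2FC = 1.64, SE 0.045) and the cargo adaptor BICD1 (1.38, SE 0.037). The dynactin subunits DCTN3 (-1.04, SE 0.038) and ACTR1B (-1.15, SE 0.036) were lower. The summed level of the 25 genes was 2908 to 3029 CPM in EA.hy926 compared with 3158 to 3242 CPM in HMEC-1. DYNC1I1 and DYNLRB2 did not pass the filter, with at most 22 counts in any library.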
